A study of Mus musculus with 8 samples.

Results

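The genes described here are 38 mouse genes that work in mitosis: kinases and cyclins of mitotic entry, the spindle checkpoint, the anaphase trigger, the kinetochore, the chromosomal passenger complex, kinesins and spindle proteins, cytokinesis factors and a topoisomerase. They were chosen by gene symbol, each read at its brightest probe set with a single symbol over all arrays. All 38 of 38 had such a probe set, among 18193 genes in the whole series, but Mad1l1 read at the floor of the arrays. Expression was measured on 8 Affymetrix mouse arrays. A group of 4 came from the mouse embryonic stem cell (ESC) line R1/E, transfected for 48 h with esiRNA (an enzymatically made pool of short interfering RNAs) against Rad21, a core subunit of the cohesin ring. The control was a further 4 arrays of the same line after esiRNA against luciferase (Luc), which mouse cells lack, and 800 ng of esiRNA and 80000 cells were used per well. The labels call the arrays biological replicates 1 to 4 of each group. They do not say whether these came from separate cultures, and if they did not, the p-values measure only a technical spread. The cells are a single line, and knock-down by esiRNA is transient and partial.

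At its brightest probe set the targeted transcript fell to 33.4% of its level in Luc cells. There Rad21 averaged 12.08 ± 0.43 in Rad21 esiRNA cells and 13.67 ± 0.19 in Luc cells (log2, mean ± SD, n = 4 each). The change was -1.58 ± 0.21 (SE, limma, adjusted p = 0.00222). Further Rad21 probe sets changed by -0.98 ± 0.19 (limma, adjusted p = 0.0114) and by -2.59 ± 0.19 (0.000164). The depth of the knock-down thus differed between probe sets. Array medians ran from 3.08 to 3.16, and arrays of the same group correlated at 0.998 to 0.999 across probe sets. All 8 of 8 ESC markers read above 10 in both groups, and 6 of them fell, with a summed linear signal of 170919 to 176814 in Rad21 esiRNA cells and 205058 to 211577 in Luc cells. Of 10 fibroblast (feeder cell) markers, 7 read under 4 in Rad21 esiRNA cells and 6 in Luc cells, with Col1a1, Col1a2, Lum and Dcn all under 3 in both groups. Others were higher: Vim averaged 13.98 in Rad21 esiRNA cells and 13.18 in Luc cells, Fn1 12.15 and 12.21, and Pdgfrb 5.80 and 5.58. The summed linear signal of the 10 ran from 17359 to 24418 in Rad21 esiRNA cells and from 12734.5 to 15229 in Luc cells, and of these Vim rose, by 0.80 (limma, adjusted p = 0.0107), Thy1 fell, by 0.56 (0.0248), and the other 8 did not pass. The study's methods state that the line was kept without feeder cells, on gelatin-coated dishes. Any part of fibroblasts in the results below was not tested. Precision throughout is limited by having 4 arrays per group.

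Mitosis is driven by kinases that are switched on in order. Cyclin-dependent kinase 1 with its cyclins, Aurora A and Polo-like kinase 1 bring cells into mitosis and build the spindle, kinetochores bind microtubules at each centromere, and the spindle checkpoint holds back the anaphase-promoting complex until every kinetochore is attached. The complex, activated by Cdc20, then marks securin and cyclin B for destruction, which frees separase to cut the Rad21 subunit of cohesin and lets sister chromatids part. Transcripts of most of these genes rise in G2 and mitosis through promoters with a cell cycle homology region (CHR), bound by the DREAM and B-Myb-MuvB complexes, and CCAAT boxes, bound by NF-Y. ESCs divide quickly, with a short G1 phase, and express these genes strongly.

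The mitotic genes changed little in Rad21 esiRNA cells. Adjusted p-values under 0.05 (limma, Benjamini-Hochberg over 45037 probe sets) were found for 11 of the 38 (28.9%), where 22.6% of all genes passed, and 36 of the 38 lay among the genes with a mean of at least 8, of which 42.4% passed. The direction was mostly upward: 9 members (23.7%) rose, beside 10.1% of all genes and 16.5% of genes with a mean of at least 8. Only 2 members (5.26%) fell, beside 12.6% of all genes and 26% of the bright genes. The members that rose were Ect2, Bub1, Mad2l1, Ttk, Aurkb, Cdc20, Cenpe, Aurka and Plk1, by 1.103- to 1.36-fold, and those that fell were Spc24 and Nek2. With arrays centred on Actb, 6 members rose (10.5% of all genes) and neither fall passed (8.54% of all genes fell). The number of members called was 7 by the plain analysis of variance (17.5% of all genes) and 6 without Rad21 esiRNA replicate 1 or 2 (18.8% and 18.5% of all genes). It was 7 without Luc replicate 3 or 4 (3578 and 3362 of 18193 genes). The number that rose was as low as 4, without Rad21 esiRNA replicate 2 (8.43% of all genes). The groups did not overlap for 10 members (26.3%; 27.8% of all genes), with all Rad21 esiRNA arrays above all Luc arrays for 8 (12.6% of all genes) and below them for 2 (15.2% of all genes).

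Changes of the whole list lay between -0.21 and 0.45 on the log2 scale, with a median of 0.039 over the 38 members, against 0.0033 over all genes and -0.047 over genes with a mean of at least 8. After quantile normalization the medians were 0.076 for the members and -0.0055 for all genes. The median absolute change was 0.088 for the members and 0.193 for the bright genes, and 17.96% of the bright genes (1181 of 6574) changed by more than the largest member. A change was above 0 for 26 members and below 0 for 12. For the 27 members that did not pass, the log2 change ran from -0.16 to 0.18. Its 95% confidence interval lay within 0.25 of 0 for 20 of them and within 0.5 for all but Cdc25b. Mad1l1 is counted among the 20, although it read at the floor of the arrays and gave no measure of change. In bulk RNA, more or fewer cells that express a gene and more or less RNA per cell cannot be told apart.

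**Figure D1:**
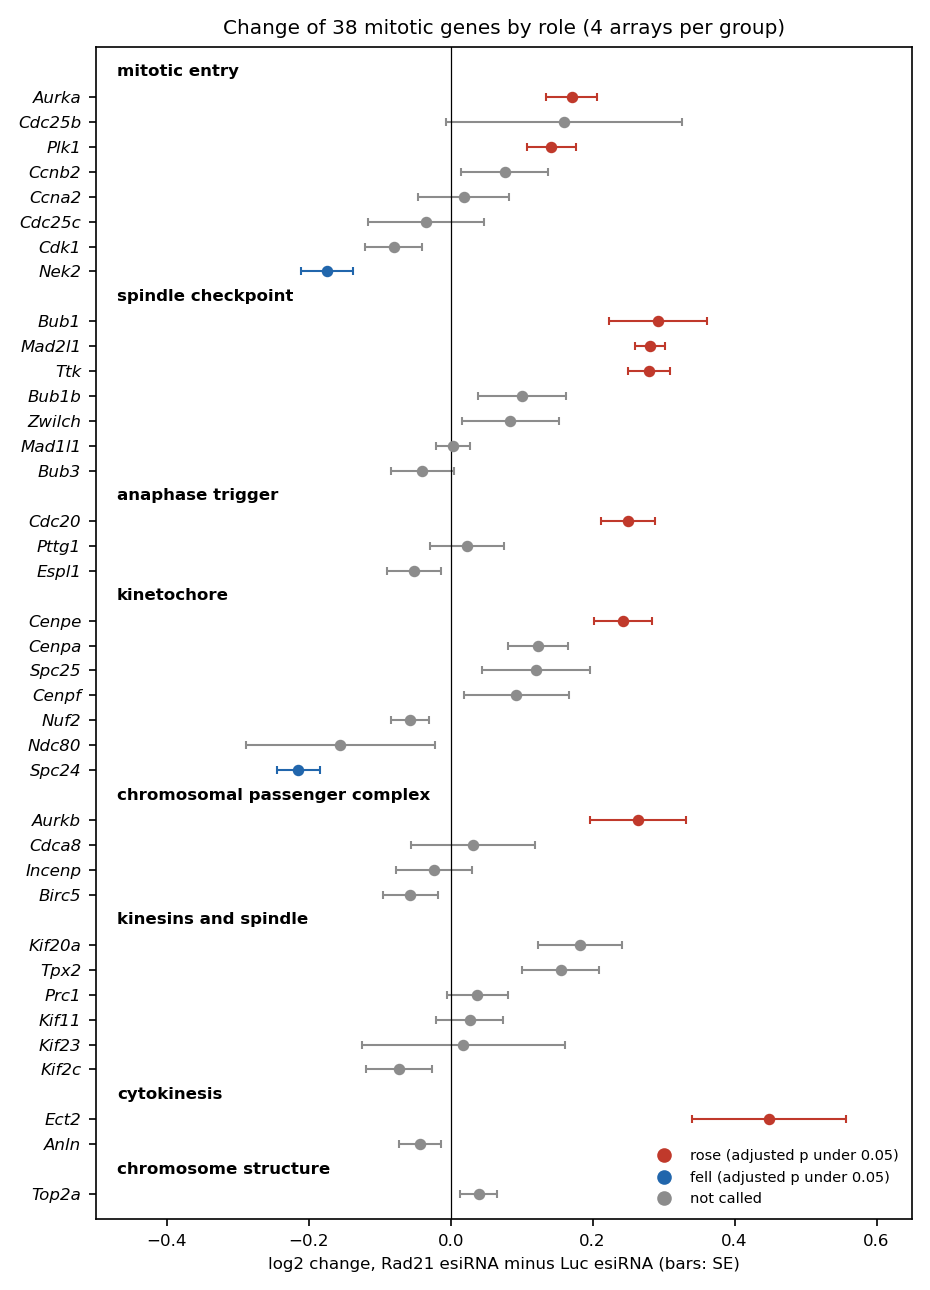
Log2 change (Rad21 esiRNA minus Luc esiRNA, 4 arrays per group) of each of the 38 mitotic genes, grouped by role, with bars for the standard error and colours for the outcome of the limma test. Of the 38, 9 rose, 2 fell and 27 were not called, and the largest rise was Ect2 at 0.45.

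Promoter windows from RefSeq (mouse assembly GRCm38.p6, 250 bases before to 50 after the start) were matched by symbol for 30 of the 38 members, in 34 windows. Those 4 called members that have the largest changes among those with a CHR within 100 bases of the start are printed here. They run 5′ to 3′ on the gene's strand and show the short motifs that many members share. Capitals mark TTTGAA or TTTAAA (the CHR) and CCAAT (the NF-Y box), or their reverse complements.
Ect2, chr3:27153829-27154128, minus strand: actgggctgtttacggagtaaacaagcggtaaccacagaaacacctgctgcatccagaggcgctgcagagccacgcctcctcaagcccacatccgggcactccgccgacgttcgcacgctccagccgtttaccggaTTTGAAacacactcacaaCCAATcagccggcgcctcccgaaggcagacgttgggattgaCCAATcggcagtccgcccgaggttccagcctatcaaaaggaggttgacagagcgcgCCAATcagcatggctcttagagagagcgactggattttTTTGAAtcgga
Ttk, chr9:83834439-83834738, plus strand: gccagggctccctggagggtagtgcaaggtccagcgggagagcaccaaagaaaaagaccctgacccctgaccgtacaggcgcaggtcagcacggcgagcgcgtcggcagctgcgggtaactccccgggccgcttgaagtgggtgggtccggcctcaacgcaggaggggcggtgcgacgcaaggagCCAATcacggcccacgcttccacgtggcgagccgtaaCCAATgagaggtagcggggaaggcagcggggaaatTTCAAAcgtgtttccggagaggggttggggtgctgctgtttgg
Cdc20, chr4:118437294-118437593, minus strand: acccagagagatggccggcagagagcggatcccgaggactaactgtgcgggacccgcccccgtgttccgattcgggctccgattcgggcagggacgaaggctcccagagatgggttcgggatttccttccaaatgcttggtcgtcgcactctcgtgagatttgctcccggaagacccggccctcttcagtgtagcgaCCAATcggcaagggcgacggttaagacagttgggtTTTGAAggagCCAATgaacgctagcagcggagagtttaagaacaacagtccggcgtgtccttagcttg
Cenpe, chr3:135212313-135212612, plus strand: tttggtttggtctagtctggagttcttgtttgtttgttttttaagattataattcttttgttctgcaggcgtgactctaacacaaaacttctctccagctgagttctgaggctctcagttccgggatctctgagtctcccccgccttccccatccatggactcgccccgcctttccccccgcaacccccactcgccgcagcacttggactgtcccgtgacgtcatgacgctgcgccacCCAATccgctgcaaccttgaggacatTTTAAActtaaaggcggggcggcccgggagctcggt

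In Cdc20 the CHR began 18 bases before the start and CCAAT boxes began 53 and 8 bases before it. In Ttk the CHR lay on the opposite strand, 8 bases into the transcript, with CCAAT boxes 65 and 28 bases before the start. In Cenpe the CHR was the TTTAAA form at base 15, with a CCAAT box 12 bases before the start. In Ect2 a TTTGAA lay at base 40 and a further one 114 bases before the start. Its CCAAT boxes lay 96 and 55 bases before the start and at base 2. The other Ect2 window, not printed, has a different start, from which the nearer TTTGAA lay at base 16. Both strands were searched, TTTAAA is its own reverse complement, and a CHR and a CCAAT box can overlap only at their ends. Within 100 bases before to 50 after the start, TTTGAA was found in 22 of the 34 member windows (64.7%) and in 8.01% of all 32851 windows. TTTAAA was found in 5 (14.7%), beside 5.61% of all windows, and CCAAT in 23 (67.6%), beside 23.4%. A match is a description of the letters and not evidence of binding. A CHR stood near the start in 6 of the 9 called members that had a window and in 15 of the 21 members not called. Mad2l1, a called member with a window, had neither a CHR nor a CCAAT box near its start.

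**Figure D2:**
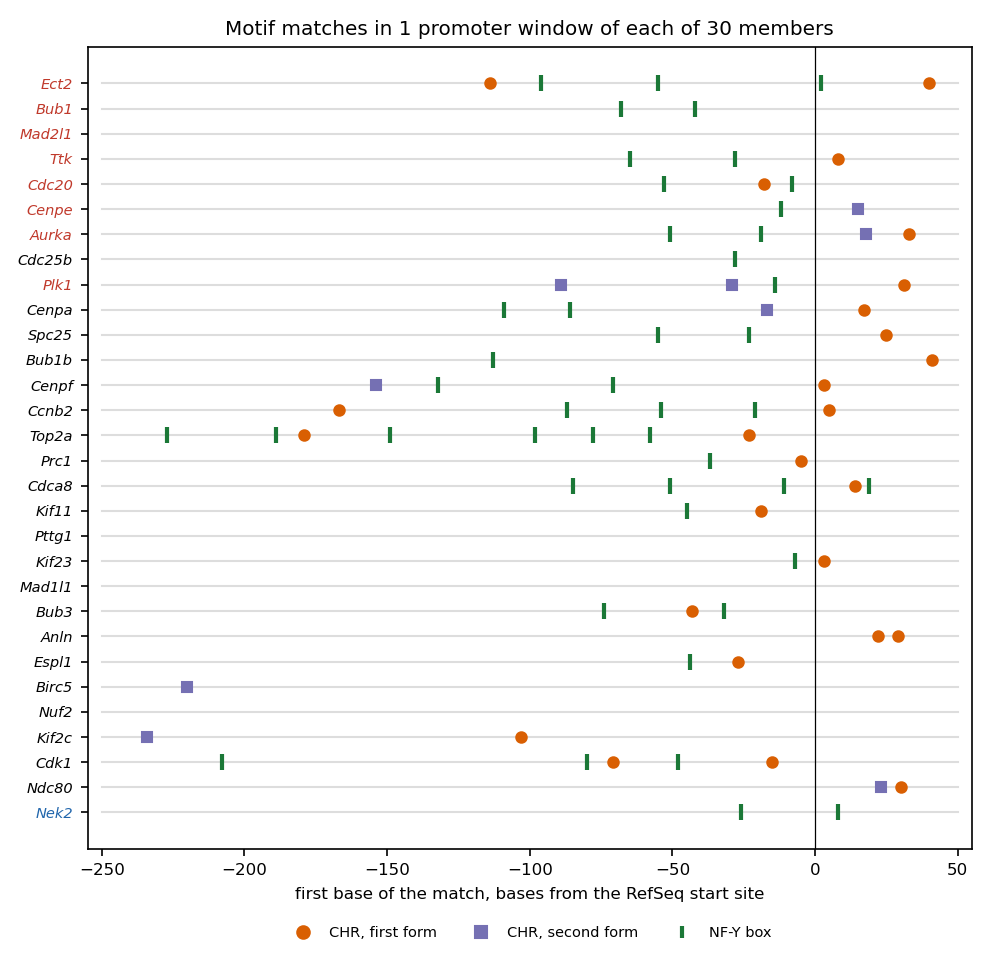
Position of motif matches in a promoter window of each of 30 members (x axis, first base of the match in bases from the RefSeq start), ordered by log2 change with the largest rise at the top; red names rose and blue names fell. CHR, first form, is TTTGAA, CHR, second form, is TTTAAA, and the NF-Y box is CCAAT, each on either strand. CCAAT or a CHR stands near the start in most called and uncalled members. Neither does in Mad2l1, which rose, or in Mad1l1, Pttg1, Nuf2, Birc5 and Kif2c, which were not called.

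Among 8 genes of mitotic entry, Aurka and Plk1 rose, Nek2 fell and 5 did not pass. Aurka encodes Aurora A, the kinase of centrosome maturation and spindle assembly. It read 11.98, 11.99, 11.98 and 11.86 in Rad21 esiRNA cells (replicates 1 to 4, log2), against 11.74, 11.84, 11.77 and 11.78 in Luc cells. Every Rad21 esiRNA array was above every Luc array, although replicate 4 came close to the highest control, Luc replicate 2. The change was 0.17 ± 0.037 (SE), with an adjusted p of 0.0188 (limma). Plk1, Polo-like kinase 1, acts from mitotic entry to cytokinesis. Its values were 11.25, 11.28, 11.36 and 11.21 in Rad21 esiRNA cells and 11.14, 11.17, 11.11 and 11.12 in Luc cells, a narrow gap without overlap and a change of 0.14 ± 0.035 (adjusted p = 0.0325). Both calls depended on which arrays were included. Aurka was lost without Luc replicate 1, 3 or 4 or Rad21 esiRNA replicate 1, 2 or 3 (adjusted p up to 0.0562), and Plk1 was lost without any Luc replicate or Rad21 esiRNA replicate 1 or 2 (up to 0.0872).

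Nek2, a kinase that splits the paired centrosomes at mitotic entry, went the other way. It read 10.92, 10.97, 10.96 and 10.90 in Rad21 esiRNA cells, against 11.21, 11.08, 11.06 and 11.11 in Luc cells. All Rad21 esiRNA arrays were below all Luc arrays, and the level was 88.6% of the control (log2 change -0.17 ± 0.037, adjusted p = 0.0170). The adjusted p was 0.0506 without Rad21 esiRNA replicate 1 and 0.471 with arrays centred on Actb. This probe set is of a type that can bind related transcripts. A more specific Nek2 probe set changed by -0.13 ± 0.040, also without overlap, and did not pass (limma, adjusted p = 0.0704).

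Cdk1, the kinase at the centre of mitotic entry, did not pass. Its values were 12.92, 12.84, 12.94 and 12.86 in Rad21 esiRNA cells and 12.88, 13.04, 12.95 and 13.00 in Luc cells, and the groups overlapped. The change was -0.08 ± 0.040 (adjusted p = 0.305), with a 95% interval of -0.17 to 0.014. Its cyclin partners Ccnb2 and Ccna2 changed by 0.08 and 0.02. Cdc25b and Cdc25c, phosphatases that activate Cdk1, changed by 0.16 and -0.03. Cdc25b varied widely within both groups. It read 7.01, 6.98, 6.59 and 6.48 in Rad21 esiRNA cells and 6.74, 6.89, 6.42 and 6.37 in Luc cells (change 0.16 ± 0.166, adjusted p = 0.725, 95% interval -0.23 to 0.55). In both groups replicates 1 and 2 were above replicates 3 and 4, and this difference passed the test over all arrays (-0.44, adjusted p = 0.00997, where 2.88% of all genes passed). With these replicate sets as a block, the change of Cdc25b between the groups was 0.16 ± 0.041 and passed (limma, adjusted p = 0.0412).

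Among 7 spindle checkpoint genes, Bub1, Mad2l1 and Ttk rose, each by about 0.28 to 0.29, and 4 did not pass. The median change of the 7 was 0.10. Mad2l1 encodes Mad2, which sequesters Cdc20 when kinetochores are unattached. It had the smallest spread of the called members over the Rad21 esiRNA arrays, at 13.56, 13.57, 13.58 and 13.58 in Rad21 esiRNA cells, against 13.28, 13.33, 13.30 and 13.25 in Luc cells. The gap between the groups was larger than the spread within either, and the change of 0.28 ± 0.021 had the lowest adjusted p of the list (0.000181, limma). Ttk, or Mps1, is the kinase that starts the checkpoint signal at kinetochores. It read 12.07, 12.08, 12.03 and 12.08 in Rad21 esiRNA cells, against 11.84, 11.82, 11.75 and 11.74 in Luc cells, without overlap (0.28 ± 0.029, adjusted p = 0.000797). Both kept their call without any single array.

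Bub1, a checkpoint kinase that also marks centromeric histone H2A, read 12.64, 12.71, 12.60 and 12.65 in Rad21 esiRNA cells, against 12.52, 12.44, 12.27 and 12.21 in Luc cells. The groups did not overlap, but the Luc arrays spread more widely than the Rad21 esiRNA arrays, with Luc replicates 3 and 4 lowest. The change of 0.29 ± 0.069 passed over all arrays (adjusted p = 0.0281) and not without Luc replicate 3 or 4 or Rad21 esiRNA replicate 1, 2 or 4 (up to 0.0798). The remaining checkpoint genes were close to the control. Bub1b (BubR1) changed by 0.10, Zwilch of the RZZ complex by 0.08 and Bub3, the partner of both Bub kinases, by -0.04. Mad1l1, the kinetochore receptor of Mad2, averaged 2.27 in both groups, at the floor of the arrays, so its probe set gave no measure of change.

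**Figure D3:**
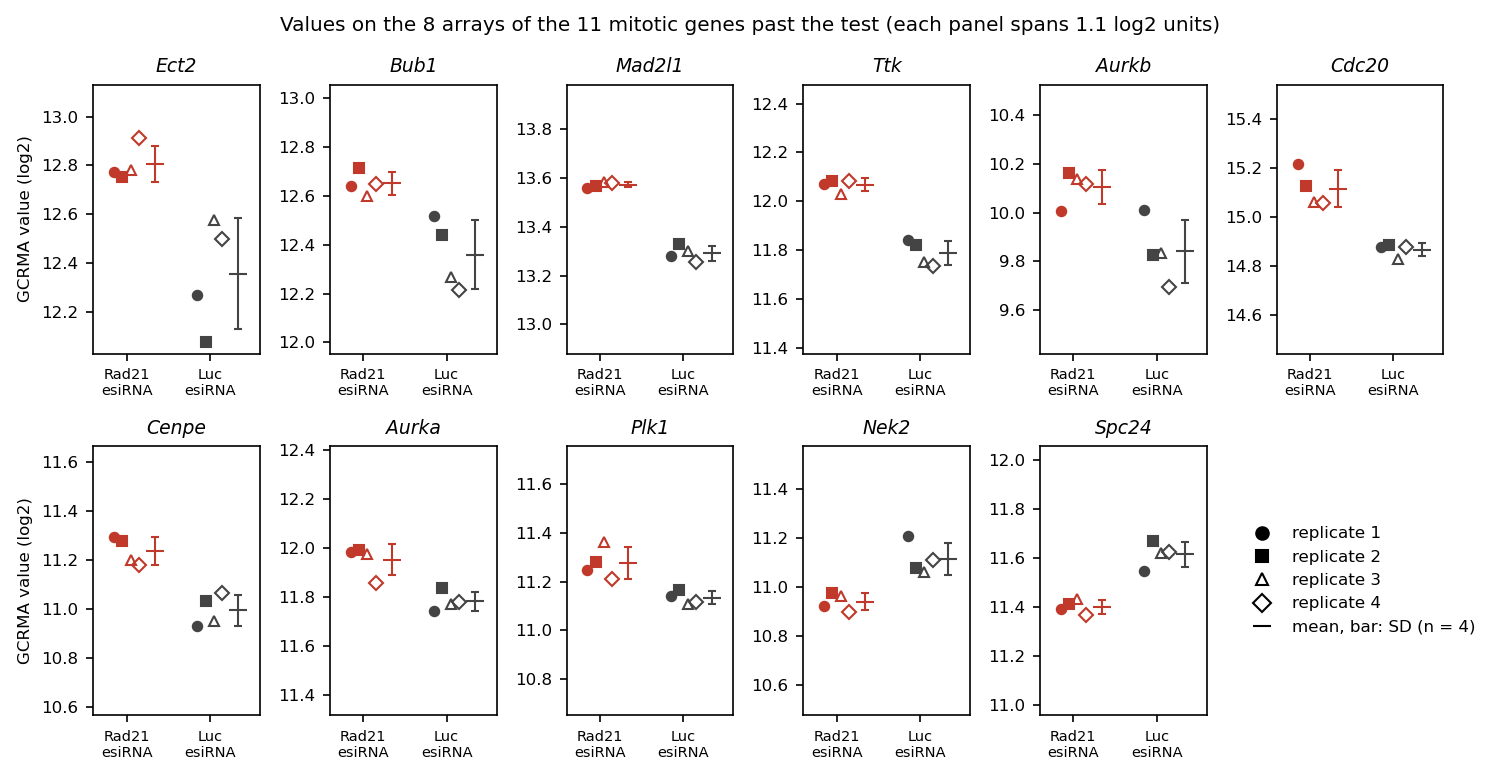
GCRMA values (log2) of the 11 mitotic genes that passed the test, on the 4 Rad21 esiRNA arrays (left) and the 4 Luc esiRNA arrays (right) of each panel; symbols are replicate numbers, and the horizontal mark with its bar is the mean and SD. Only in Aurkb do the groups overlap, with Luc replicate 1 at 10.01 and Rad21 esiRNA replicate 1 at 10.005.

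Of the 3 genes of the anaphase trigger, the activator rose and the inhibitor and the protease did not pass. Cdc20, which activates the anaphase-promoting complex and is the target of the checkpoint, read 15.22, 15.13, 15.06 and 15.06 in Rad21 esiRNA cells, against 14.88, 14.88, 14.83 and 14.88 in Luc cells. No array of either group lay in the range of the other, and the change was 0.25 ± 0.038 (limma, adjusted p = 0.00414). That probe set is of a type that can bind related transcripts. A more specific Cdc20 probe set changed by 0.20 (adjusted p = 0.200), and a further one of the same type by 0.35 ± 0.069 (0.0129). Pttg1 (securin), which holds separase inactive, changed by 0.02, and Espl1 (separase), which cuts Rad21 at anaphase, by -0.05 (95% interval -0.14 to 0.038). Rad21 mRNA was at 33.4% of the control at its brightest probe set, whereas the transcript of the enzyme that cuts the Rad21 protein was at 96.5%.

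At the kinetochore, Cenpe rose, Spc24 fell and 5 of 7 genes did not pass. Cenpe encodes the kinesin that carries chromosomes to the spindle equator. Its values were 11.30, 11.28, 11.20 and 11.18 in Rad21 esiRNA cells, against 10.93, 11.03, 10.95 and 11.07 in Luc cells. The groups were apart, and the change was 0.24 ± 0.041 (limma, adjusted p = 0.00676). A second Cenpe probe set rose more, by 0.53 ± 0.1005 (adjusted p = 0.0113). Cenpa, the histone H3 variant of centromeres, read 12.92, 12.79, 12.79 and 12.86 in Rad21 esiRNA cells and 12.72, 12.80, 12.66 and 12.69 in Luc cells, with overlap at Luc replicate 2 (change 0.12 ± 0.042, adjusted p = 0.109, and 0.0491 without that array). Cenpf, a large protein of the outer kinetochore, changed by 0.09.

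The Ndc80 complex, which holds the end of a microtubule, has 4 subunits, of which Spc24 fell and the others did not pass. Spc24 read 11.39, 11.41, 11.43 and 11.37 in Rad21 esiRNA cells, against 11.55, 11.67, 11.62 and 11.63 in Luc cells. All Rad21 esiRNA arrays were below all Luc arrays, the level was 86.2% of the control, and the change of -0.21 ± 0.030 passed (limma, adjusted p = 0.00272) without any single array, but not with arrays centred on Actb (-0.17, 0.210). Spc25, its binding partner, changed by 0.12 and Nuf2 by -0.06. Ndc80 itself read 10.28, 10.30, 10.26 and 10.27 in Rad21 esiRNA cells and 10.33, 10.87, 10.25 and 10.27 in Luc cells. Its change of -0.16 ± 0.133 (adjusted p = 0.638) rested on Luc replicate 2, and without that array it was -0.01 (0.910).

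The chromosomal passenger complex corrects wrong attachments at centromeres and later acts at the midzone. Its kinase Aurkb (Aurora B) rose, and its other 3 subunits did not pass. Aurkb read 10.005, 10.16, 10.14 and 10.12 in Rad21 esiRNA cells, against 10.01, 9.83, 9.83 and 9.70 in Luc cells. The groups overlapped at replicate 1, and the change of 0.26 ± 0.068 was the closest to the threshold of all called members (limma, adjusted p = 0.0391). It was lost without Luc replicate 2, 3 or 4 or Rad21 esiRNA replicate 2, 3 or 4 (up to 0.105), and a second probe set changed by 0.22 (0.0826). Incenp, the scaffold, changed by -0.02, Birc5 (survivin) by -0.06 and Cdca8 (borealin) by 0.03.

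Kinesins and spindle proteins gave no call among 6 genes at their brightest probe sets (limma), with 2 under 0.05 before adjustment. These were Kif20a and Tpx2. Kif20a, a kinesin of the midzone and cleavage, read 12.15, 12.21, 12.04 and 12.01 in Rad21 esiRNA cells and 11.93, 12.04, 11.83 and 11.88 in Luc cells. Its groups overlapped, and the change was 0.18 ± 0.060 (adjusted p = 0.0958, and 0.0476 without Luc replicate 2). Tpx2, the activator of Aurora A on the spindle, changed by 0.15 (adjusted p = 0.115), and its second probe set by 0.54 ± 0.154 (0.0604). Both genes passed with replicates 1 and 2 against replicates 3 and 4 as a block, Kif20a at 0.00934 and Tpx2 at 0.00445. Kif11 (Eg5), which pushes spindle poles apart, changed by 0.03, Kif23 of centralspindlin by 0.02, the microtubule bundler Prc1 by 0.04 and the microtubule-depolymerising Kif2c by -0.07.

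Cytokinesis held the largest change of the list. Ect2 encodes the exchange factor that activates RhoA at the cleavage furrow. It read 12.78, 12.75, 12.78 and 12.91 in Rad21 esiRNA cells, against 12.27, 12.08, 12.58 and 12.50 in Luc cells. The groups did not overlap, but the controls varied more than the Rad21 esiRNA arrays (SD 0.226, against 0.0732 in Rad21 esiRNA cells), and Luc replicates 1 and 2 were the lowest. The change of 0.45 ± 0.108, or 1.36-fold, had an adjusted p of 0.0303 (limma), and was lost without Luc replicate 1 or any Rad21 esiRNA replicate (up to 0.0847). Anln (anillin), the furrow scaffold, changed by -0.04. Top2a, the topoisomerase that untangles sister DNA, changed by 0.04 (95% interval -0.022 to 0.10).

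The further probe sets of the members mostly pointed the same way. Of 84 member probe sets, 28 besides the brightest had a mean of at least 4, over 21 genes, and 21 of the 28 shared the sign of the brightest. For the called members there were 6 such probe sets over 5 genes, all 6 with the same sign, of which the second Cenpe and the third Cdc20 probe set passed. Kif11 and Kif2c each had a dimmer probe set that fell while the brightest did not pass. The third Kif11 probe set changed by -0.41 ± 0.071 (limma, adjusted p = 0.00735) and the second Kif2c probe set by -0.21 ± 0.035 (0.00641).

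Replicates 1 and 2 parted from replicates 3 and 4 in both groups on the second principal component, which held 11.6% of the variance. The labels name no batch, so the comparison was made within each set of 2 arrays per group. Both comparisons came from a single fit to all 8 arrays with a shared residual variance, so their calls are not independent. All 11 called members had the same sign in both sets, and the median over all members was 0.066 in the first set and 0.086 in the second. In the shared fit 8 members passed in replicates 1 and 2 (24% of all genes) and 7 in replicates 3 and 4 (20.5% of all genes), and Bub1, Mad2l1, Ttk, Cdc20 and Spc24 passed in both. Ect2 changed by 0.59 in replicates 1 and 2 and by 0.31 in replicates 3 and 4, and Bub1 by 0.20 and 0.38. The lowest adjusted p for a difference between sets was 0.129 among the members (limma interaction, passed by 1.03% of all genes). With the sets as a block, 15 members passed, 13 of them upward, and calls over all genes were more frequent too (27.1%, with 12.2% upward). The 11 called members all kept their call in that fit, and Kif20a, Tpx2, Cdc25b and Spc25 joined them (limma, adjusted p from 0.00445 to 0.0424).

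**Figure D4:**
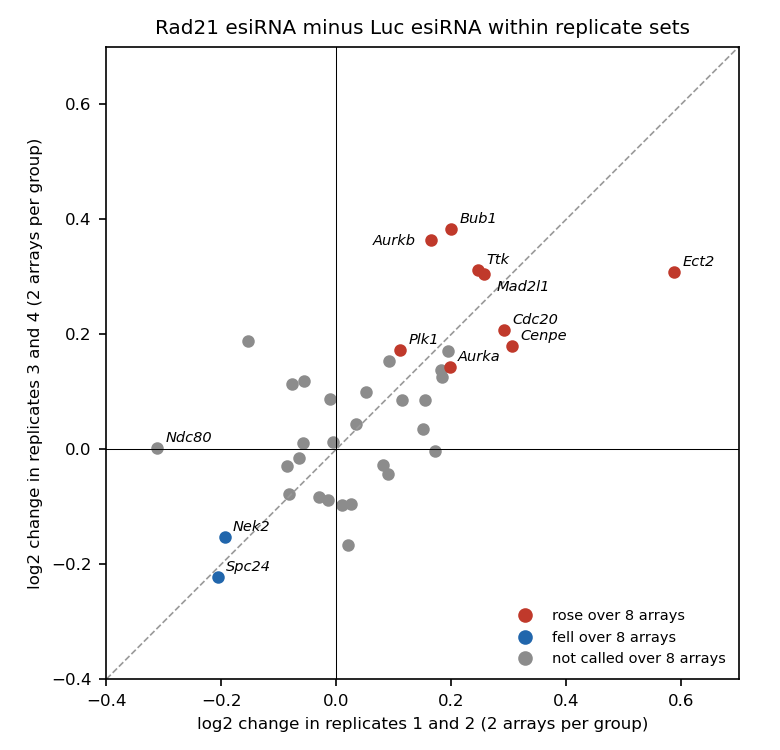
Log2 change (Rad21 esiRNA minus Luc esiRNA) of the 38 mitotic genes in replicates 3 and 4 (y axis) against that in replicates 1 and 2 (x axis), each from 2 arrays per group; the dashed line marks equal changes and colours the outcome over 8 arrays. The 11 called members lie in the upper right or lower left quadrant, and Ndc80 stands apart at -0.31 in replicates 1 and 2.

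A list of 72 other genes of mitosis, of which 69 were measured, gave 19 calls (27.5%; 22.6% of all genes). Of the 69, 63 lay among genes with a mean of at least 8, of which 42.4% passed. The calls were 11 upward, where 10.1% of all genes rose, and 8 downward, where 12.6% fell. The median change of the list was 0.017. The largest called rises were those of Ckap2, a spindle pole protein (0.48, limma, adjusted p = 0.00983), Kif18b, a kinesin of astral microtubules (0.47, 0.00258), Cenpm of the inner kinetochore (0.39, 0.00806), the chromokinesin Kif4 (0.30, 0.0148) and Dsn1 of the Mis12 complex (0.29, 0.00430). Falls were led by Anapc10, the substrate-binding subunit of the anaphase-promoting complex, which changed by -0.52 (limma, adjusted p = 0.00133). Cdc25a, a phosphatase that activates cyclin-dependent kinases, changed by -0.41 (0.00721), Fzr1 (Cdh1), the late mitotic counterpart of Cdc20, by -0.38 (0.00201), Fbxo5 (Emi1), an inhibitor of the complex, by -0.27 (0.00306) and Sgo1 (shugoshin), which guards centromeric cohesin, by -0.26 (0.00193). Of 12 subunits of the anaphase-promoting complex, all 12 with a mean of at least 8, 3 were called, beside 22.6% of all genes and 42.4% of the bright genes. Cdc27 rose (0.29), and Anapc10 and Cdc16 (-0.12) fell. Cdc27 was not called without Rad21 esiRNA replicate 2 (adjusted p = 0.0509), and Cdc16 not without Luc replicate 1, 2 or 4 or Rad21 esiRNA replicate 1, 3 or 4 (up to 0.0899). With arrays centred on Actb, 8 of the 69 passed upward (10.5% of all genes) and 3 downward (8.54% of all genes).

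Regulators that control transcription of mitotic genes went in either direction. Of 22 measured, 11 passed (50%, beside 22.6% of all genes), 8 downward (12.6% of all genes) and 3 upward (10.1% of all genes). Of the 22, 15 lay among genes with a mean of at least 8, of which 42.4% passed. The median change was -0.060 and the median absolute change 0.281. The plain analysis of variance gave 4 calls (17.5% of all genes), 3 downward and 1 upward (1770 and 1410 of 18193 genes). With arrays centred on Actb, 4 passed downward (8.54% of all genes) and 3 upward (10.5% of all genes). Mybl2 (B-Myb), the activating subunit of the complex that binds the CHR, read 10.57, 10.47, 10.43 and 10.49 in Rad21 esiRNA cells, against 11.20, 11.25, 11.43 and 11.39 in Luc cells. The groups were far apart, and Mybl2 fell to 56.4% of the control (log2 change -0.83 ± 0.059, limma, adjusted p = 0.000143). The forkhead activator Foxm1 rose. It read 6.03, 6.04, 5.97 and 6.23 in Rad21 esiRNA cells, against 5.68, 5.56, 5.45 and 5.87 in Luc cells, without overlap (0.43 ± 0.096, adjusted p = 0.0220, and up to 0.0637 without Luc replicate 1 or 2 or Rad21 esiRNA replicate 2 or 4).

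Among the E2f factors, the repressor E2f7 rose by 0.38 ± 0.038 (limma, adjusted p = 0.000655) and E2f5 by 0.25 (0.0320), whereas E2f2 fell by 0.76 (0.0319) and the repressor E2f8 fell by 0.42 (0.00700). Tfdp2, a partner of E2f factors, fell by 0.41 (0.0411), as did Nfya, the DNA-binding subunit of NF-Y (0.0222). The calls of E2f5, E2f2, Tfdp2 and Nfya were lost without Rad21 esiRNA replicate 1 or 2, and each without 3 to 5 further single arrays (adjusted p up to 0.107). The number of regulators called was 8 without Luc replicate 2 and between 4 and 7 without any other single array, against 11 over all 8. Of 18193 genes, 3534 passed without Luc replicate 2, from 3362 to 3812 without any other single array, and 4116 over all 8.

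**Figure D5:**
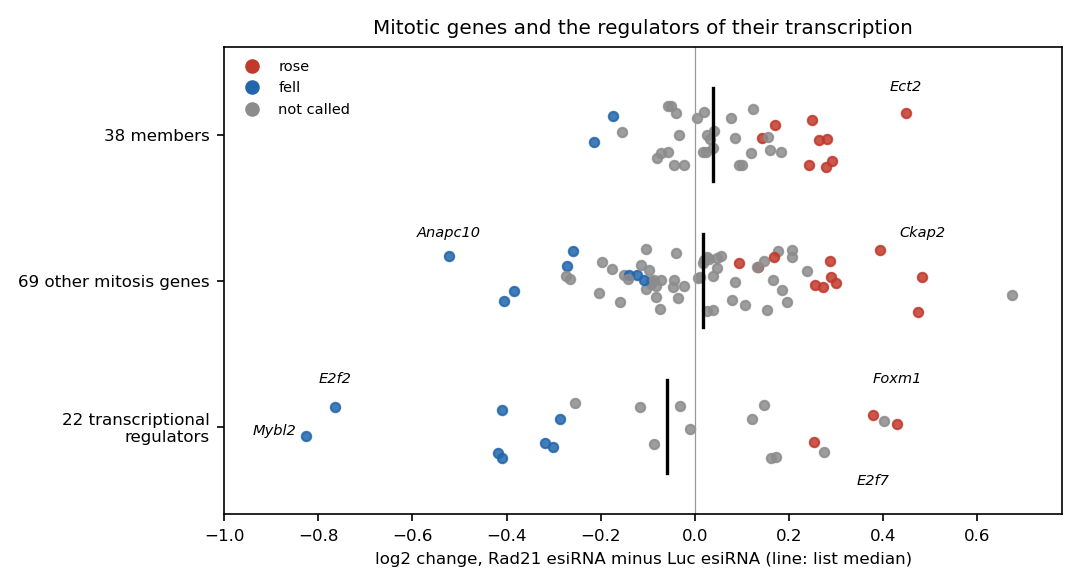
Log2 change (x axis, Rad21 esiRNA minus Luc esiRNA) of each of the 38 mitotic genes, 69 other mitosis genes and 22 transcriptional regulators; points are genes, colours the outcome of the limma test and vertical lines the list medians of 0.039, 0.017 and -0.060. The 38 members span -0.21 to 0.45, and Mybl2 is the lowest regulator at -0.83.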

How the data were processed

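Total RNA of R1/E ESCs, 250 ng per labelling according to the labels, was hybridised to 8 arrays. In Partek 6.4 the authors turned the scans into deposited log2 values with GCRMA (background correction by the GC content of probes, normalization and a summary per probe set). The method normalizes the arrays to a shared distribution before the summary, which can hide a shift of the whole transcriptome, and draws dim probe sets to a floor. The deposited values need not share a single distribution, and their array medians ran from 3.08 to 3.16. Of 45101 probe sets, 64 controls were left out, and 34945 of 45037 had a single gene symbol in the platform annotation, 932 several and 9160 none here.

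Groups came from the labels. Each probe set was fitted with limma 3.58.1 (lmFit and eBayes, R 4.3.3) without a block or filter, in place of the analysis of variance that the methods state. Tests were two-sided with Benjamini-Hochberg adjustment over 45037 probe sets, and a call was an adjusted p under 0.05. Also used were statmod 1.5.0, data.table (version 1.17.8), Python 3.11.15 and matplotlib 3.10.9. The fit was tested on simulated data before use.

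The members, the lists of other mitosis genes and regulators, the markers and the rule for naming were chosen with earlier results of these data known. The rule shows all arrays for each called member, for Cdk1, Plk1 and Cenpa and for the 3 largest changes among members not called, and names up to 5 called genes in each direction of the other lists. Cdc27, Cdc16, Vim and Thy1, and the arrays of Mybl2 and Foxm1, were chosen after their values were seen. No protein sequence was used.

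Alternatives were the plain analysis of variance, limma with a variance trend and robust prior, array weights, the replicate number or the replicate sets as blocks, either set alone, leaving out each array, thresholds of 0.01 and 0.1, and a minimum mean of 4. Scaling was changed to quantile normalization or to centring on Gapdh, Actb or bright probe sets. Genes were also read without _x_at and _s_at probe sets, which can bind several transcripts, and as the mean over their probe sets.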

Additional observations from a re-analysis of the deposited data

Results flagged for a closer look

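Among 78 groups of 4 arrays (38 members and Rad21, each in both groups), 8 held an array whose gap to the nearest other array, divided by the range of the group, was above Dixon's 95% critical value. Chance alone marks about 1 in 20 groups. In Rad21 esiRNA cells these were Aurka in replicate 4, at 11.86 where the others read 11.98 to 11.99, Espl1 in replicate 4, at 10.23 where the others read 10.38, Kif11 in replicate 1, at 11.61 where the others read 11.68 to 11.69, and Mad1l1 in replicate 1, at 2.24 where the others read 2.28 to 2.29. In Luc cells they were Ndc80 in replicate 2, at 10.87 where the others read 10.25 to 10.33, Incenp in replicate 2, at 13.03 where the others read 12.82 to 12.84, Cdc20 in replicate 3, at 14.83 where the others read 14.88, and Kif2c in replicate 1, at 12.42 where the others read 12.50 to 12.51. Aurka kept its call without its array (0.20, limma, adjusted p = 0.00504) and so did Cdc20 (0.24, 0.0148). Espl1, Kif11, Ndc80, Incenp and Kif2c were not called with or without theirs.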

How the results depend on the processing

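The 11 called members had the same sign under every alternative that gave a value (Aurkb has no probe set left without those named _x_at or _s_at). Counts of calls moved more. Of the members, 11 passed over all arrays (9 up, 2 down, beside 22.6% of all genes) and 7 by the plain analysis of variance (5 up, beside 17.5% of all genes). At an adjusted p under 0.01, 5 passed (4 up, 1 down), beside 2479 of 18193 genes (limma). Within replicates 3 and 4, 7 passed (5 up, beside 20.5% of all genes). With arrays centred on Actb, 6 passed, all upward and so 0 down, beside 3473 of 18193 genes (limma). Falls numbered 1 within replicates 1 and 2, where 2476 of 18193 genes fell. Leaving out single arrays gave 6 to 11 called members, 4 to 9 upward and 1 to 2 downward. Over all 18193 genes these fits gave 3362 to 3812 calls, 1468 to 1680 upward and 1837 to 2132 downward. Called members numbered 6 without Rad21 esiRNA replicate 1 or 2 (18.8% and 18.5% of all genes) and 7 without Luc replicate 3 or 4 (3578 and 3362 of 18193 genes). Other mitosis genes called, 19 over all arrays, were 11 with Actb, 9 at 0.01 and 14 to 19 without single arrays. Calls over all 18193 genes numbered 4116, 3473, 2479 and 3362 to 3812 in the same settings. Actb centring moved the median change of the members to 0.079 and that of all genes to 0.043, and quantile normalization to 0.076 and -0.0055. Kif11 reversed to -0.15 as the mean of its probe sets (adjusted p = 0.0229).

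Arrays with the same replicate number did not pair: their deviations correlated at 0.022 to 0.13, and 2 of 8 arrays were best matched by their own number. With the replicate number as a block, 10 members passed (9 up, 1 down), with Plk1, Nek2 and Aurkb lost and Kif20a and Tpx2 gained, and 3776 of all genes, against 4116.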
